A study of Mus musculus with 85 samples.

Results

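Hematopoietic stem cells (HSC) of the mouse fetal liver were divided by the mitotic genes that each single cell expressed. A count was made, per cell, of how many of 10 genes of mitosis (Mki67, Top2a, Birc5, Ccnb2, Cdk1, Ube2c, Tpx2, Kif11, Cenpf and Aurkb) lay above log2 5, the value taken here as the upper edge of array background. The members of both classes were thus chosen by measured values of these 10 genes. Cells with 5 or more of them were called cycling and cells with 2 or fewer were called quiet. Of the 26 fetal liver HSC, 8 were cycling and 18 were quiet, and no cell lay between these limits. The whole series held 84 cells on 85 arrays, after cells 20 and 21 of the fetal liver had been averaged because their arrays were near-identical (Pearson r 0.991, against 0.716 for the next closest pair of fetal liver HSC).

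The series profiled developing hematopoietic stem and progenitor cells, 1 cell per microarray, in 5 populations. The fetal liver HSC came from wild-type embryos at E14.5 (embryonic day 14.5), after collagenase digestion, and were sorted singly from cells positive for CD150, c-Kit, Sca-1 and Mac-1 and negative for CD48 and lineage antigens. For comparison there were 28 cells of E10.5 hematopoietic clusters and 16 cells of E12.5 hematopoietic clusters, both wild type and sorted as c-Kit+CD31+CD45+SSEA1-, the first from the caudal portion of the embryo and the second from the aorta-gonad-mesonephros region. The remaining groups were 7 E10.5 endothelial cells and 7 E10.5 hemogenic endothelial cells from embryos carrying the eR1-GFP reporter, a Runx1 enhancer driving green fluorescent protein, sorted as CD31+Ter119-CD45-CD41- and GFP- or GFP+. The labels name no animal or litter for a cell, so each class counts as 1 sample: spreads below are between cells, and no p-value is given.

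A dividing cell first licenses and copies its DNA in S phase, under E2F factors that induce the replication machinery in late G1. It then condenses and separates its chromosomes in mitosis, with genes that the MuvB complex, B-Myb and Foxm1 activate in G2. Fetal liver HSC are known as an expanding population, in contrast to the mostly dormant HSC of adult bone marrow. A cell without mitotic transcripts can be in G0, in G1 or in early S phase, and the word quiet does not tell these apart.

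The 10 genes of the rule separated the cells without any near the limits. The cycling cells nearest to the limit held 7 of the genes and the quiet cells nearest to it held 1. Mki67, the gene of the Ki-67 proliferation antigen, spanned log2 9.03 to 12.41 with a median of 11.23 in the cycling cells. In the quiet cells it spanned 2.72 to 2.83 with a median of 2.80. Top2a, the topoisomerase that untangles sister chromatids, spanned 10.16 to 13.21 in cycling cells with a median of 12.29. In the quiet cells it had a median of 2.58, and 1 of them (cell 19) reached 9.22. Birc5, the survivin subunit of the chromosomal passenger complex, was above background in all 8 cycling cells (5.57 to 12.40) and in none of the quiet cells. Ccnb2, a mitotic cyclin, was above background in 5 cycling cells and in no quiet cell. Since these genes chose the classes, their values describe the division and test nothing.

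Of the 18 quiet cells, 6 held no gene of the rule and 12 held a single one. That single gene was Cdk1, the kinase that drives entry into mitosis, in 7 cells. It was Ube2c in 2 cells and Top2a, Cenpf and Aurkb in 1 cell each. Cdk1 had a median of 11.98 in cycling cells and 4.44 in quiet cells, with a highest quiet value of 11.34, so its ranges overlapped.

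**Figure D1:**
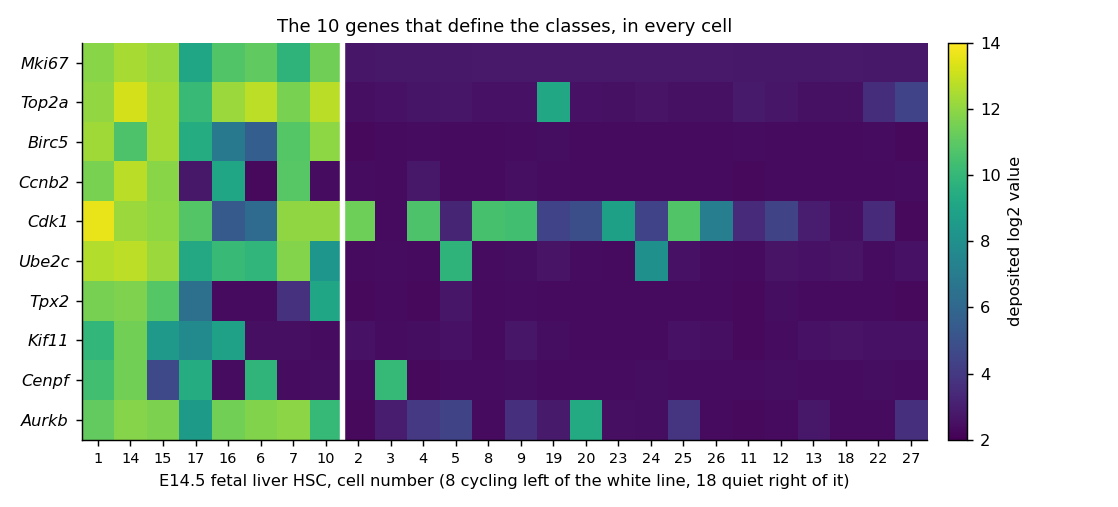
Deposited log2 value (colour, from dark at 2 to yellow at 14) of the 10 genes that define the classes (rows) in each of the 26 fetal liver HSC (columns, by cell number). The 8 cycling cells left of the white line hold 7 to 10 of the genes, and the 18 quiet cells right of it hold at most 1, in 7 of them Cdk1.

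The label of the cells was set against marker genes. Kit was above background in all 8 cycling and 17 of 18 quiet cells, Fgd5 in 8 and 13, Mecom in 7 and 16, Hlf in 6 and 15, Procr in 5 and 12, and Slamf1 (CD150) in 2 and 8. Cd48, the gene of an antigen that the gate excludes, was above background in 2 quiet cells and no cycling cell. Itgam, the gene of Mac-1, went against the gate. The cells were sorted positive for Mac-1, and Itgam was above background in 1 quiet cell and no cycling cell. Quiet cell 5 and cycling cell 7 went against the label. They held the endothelial genes Lyve1 (15.05 and 14.73), Stab2, Cdh5, Kdr and Cldn5 and lacked Ptprc (CD45) (2.34 and 2.33), and cell 5 also lacked Kit (2.48). They had 12 and 16 of 17 endothelial genes above background, and 10 and 12 of 36 measured HSC-associated genes. Over the other marker lists the classes were alike in range: per cell, 0 to 3 of 13 macrophage genes in both classes, with C1qa, Adgre1, Cd5l and Vsig4 in no cell, 1 to 3 and 0 to 4 of 16 hepatocyte genes, with Alb and Ttr in no cell, 1 to 2 and 0 to 2 of 13 mesenchymal genes, with Col1a1, Col3a1 and Dcn in no cell, and 0 to 3 and 1 to 5 of 17 erythroid genes, with Gata1, Klf1 and Alas2 in no cell. Other members of these lists were above background. Among them were C1qb in quiet cell 24 (10.55), C1qc in cycling cell 7 (10.01) and Apoe in 6 cycling and 14 quiet cells. Afp was in cycling cell 1 and quiet cell 4, Apoa1 in quiet cell 4, and Pdgfra in quiet cells 3 and 12. Values without cells 5 and 7, or without cell 7 alone, are given below for a number of lists and genes.

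Cycling cells had more probe sets above background, between 5560 and 8489 of 45101 with a median of 7340.5, against 4750 to 7972 with a median of 6383.5 in quiet cells, and the ranges overlapped. More RNA per cell and better recovery of RNA from a cell cannot be told apart here.

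Genes outside the rule were compared by the difference of the mean log2 values, cycling minus quiet, over the 8501 genes above background in at least 3 of the 26 cells. A difference of at least 2 log2 units is called higher or lower. By this measure 756 genes were higher in cycling cells (8.89% of those measured) and 366 were lower (4.31%), and the median over all measured genes was 0.08. When each cell was shifted to an equal median signal, the all-gene median moved to 0.57 and the split became 1274 higher and 180 lower. Many calls rested on few cells, since 471 of the 756 higher and 205 of the 366 lower calls were kept whichever single cell was left out. Where a class lay at background its values have no order. For named genes with no cell of a class above background, differences counted from log2 5 upward (values under 5 set to 5) are therefore given. They are lower bounds, written as at least, only where every cell of the other class was above background. Counted from log2 5 upward, 315 genes were higher and 120 lower.

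Genes of G2 and mitosis outside the rule were higher as a block. Of 115 such genes on the array 102 were measured. Of these, 86 (84.3%) were higher in cycling cells and none was lower, against 8.89% and 4.31% of all measured genes. The mitotic lists below stand against the same shares. The mitotic genes had a median difference of 4.37, against 0.08 over all genes, and 77 kept their call without any single cell. With values under log2 5 set to 5 the median was 2.90 and 73 were higher, and with only cells in the shared range of probe sets above background it was 3.85. Without the Lyve1 cells it was 4.67, with 86 higher and 1 lower. With no filter on low values it was 4.13. These genes belong to the programme from which the rule was drawn, so the block is a description of the classes.

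Among kinases and cyclins of mitosis, all 17 measured genes were higher, with a median difference of 4.70. Ccna2, the cyclin of S phase and mitotic entry, spanned 8.75 to 12.42 in the cycling cells with a median of 9.69. In quiet cells it spanned 2.33 to 3.05 with a median of 2.49, so the classes did not overlap, and the difference was at least 5.10 (7.54 as deposited). Bub1, a kinase of the spindle checkpoint, spanned 7.54 to 12.18 in cycling and 2.30 to 2.48 in quiet cells, a difference of at least 5.03. Neil3, a DNA glycosylase and no member of the mitotic lists, spanned 7.19 to 11.30 against 2.36 to 2.98, at least 4.45. These 3 genes, 0.0353% of the measured genes, were the only ones above background in every cycling cell and in no quiet cell. Allowing 1 quiet cell added Anln, Bub1b and Spc24 (6 genes, 0.0706%).

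The ranges of the deposited values did not overlap for 6 genes (0.0706%), all higher in cycling cells: Bub1, Ccna2, Neil3, Shcbp1, Esco2 and H2az1. For Shcbp1 and Esco2 the gap lay below log2 5, where values have no order, since their lowest cycling cells read 4.60 and 3.91. H2az1, which encodes the histone variant H2A.Z, was above background in 17 of 18 quiet cells too, and differed in level: it spanned 13.39 to 15.14 in cycling cells with a median of 14.31 and 3.63 to 13.11 in quiet cells with a median of 11.40. Esco2, which acetylates cohesin in S phase, was above background in 7 of 8 cycling cells and in no quiet cell. No gene had its whole cycling range below its quiet range (0%).

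For the chromosomal passenger complex, Cdca8 (borealin) differed by 7.92 as deposited and by 6.01 counted from log2 5, where the mitotic kinase Pbk stood at 6.07. Cdca8 spanned 8.20 to 13.05 in cycling cells with a median of 12.40, and 2.34 to 10.85 in quiet cells with a median of 2.86 and 3 cells above background. Incenp, its scaffold, was above background in all 8 cycling and 5 quiet cells (difference 6.63). In the kinetochore and checkpoint list 24 of 26 measured genes were higher, with a median of 4.53. Mad2l1, the Mad2 checkpoint protein, was above background in all 8 cycling and 2 quiet cells (6.12). Nuf2, of the Ndc80 complex, was in 7 and 0 cells (4.14 counted from log2 5). Centromere genes that quiet cells also held differed less, as Cenpw in 7 cycling and 10 quiet cells (2.26, and 1.96 without cell 14).

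Condensin, which compacts chromosomes for mitosis, was part of a list with 13 of 16 genes higher and a median of 4.84. Smc2, a core subunit of both condensins, spanned 9.98 to 13.50 in cycling cells with a median of 11.77 and had a median of 2.36 in quiet cells, 4 of which were above background (difference 7.46). Ncaph and Ncapg of condensin I were above background in 8 and 7 cycling cells and in 3 and 0 quiet cells. Ncaph differed by 7.02 as deposited, and Ncapg by 4.07 counted from log2 5. Ncapd3 of condensin II stood at 6 of 8 cycling and 7 of 18 quiet cells (2.25, and 1.68 without cell 7), and Ncaph2 of condensin II at 5 and 9 (1.02, not called).

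Spindle genes and kinesins were higher in 21 of 23 measured cases, with a median of 4.12. Kif20a, a kinesin of the late spindle, was above background in 7 cycling cells and no quiet cell, and Nusap1 in 6 and 0. Counted from log2 5 their differences were 4.50 and 4.46. The tubulin gene Tubb5 and the tubulin regulator Stmn1 were above background in every cell of both classes and were not called (1.14 and 0.96). All 7 measured genes of cytokinesis were higher, with a median of 6.17. Among them Anln (anillin of the contractile ring) spanned 7.66 to 11.90 in the cycling cells and was above background in 1 quiet cell. Shcbp1, also of this list, differed by 4.88 counted from log2 5.

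The anaphase-promoting complex, the ubiquitin ligase that ends mitosis, had a median of 1.67. Its mitotic activator Cdc20 was above background in 6 cycling and 3 quiet cells (4.63), and its inhibitor Fbxo5 in 7 and 3 (3.77). Its ubiquitin-conjugating partner Ube2s was higher by 2.28, which became 1.98 without cell 19. Most core subunits were read in both classes: Anapc5 was above background in every cell (difference -0.11), Cdc16 in 8 and 12 cells (1.67), Cdc27 in 6 and 10 (0.40), and Anapc1 in 6 and 16 (-1.80, and -2.30 without the Lyve1 cells). Of 13 genes in the list 4 were called higher, the fourth being the subunit Anapc7 (2.67).

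Genes of S phase were higher as a block by a smaller amount. Of 107 on the array 100 were measured, with 58 higher (58%), only Ung lower and a median difference of 2.36. Of all measured genes 8.89% were higher and 4.31% lower, with a median of 0.08, and the S-phase lists below stand against the same shares. Of the higher S-phase calls, 47 were kept without any single cell. The S-phase median was 2.32 without the Lyve1 cells (57 higher, 2 lower), 2.29 in the shared range of probe sets and 1.72 with values under log2 5 set to 5. With no filter on low values it was 2.21.

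The S-phase and mitotic lists differed in how often their genes were read in quiet cells. Of the 100 S-phase genes, 44 were above background in at least 50% of the quiet cells and 5 were in no quiet cell. Of the 102 G2 and mitosis genes, 21 were in at least 50% of the quiet cells and 33 in none. A gene in no quiet cell passed the filter of at least 3 cells through the cycling cells alone. The counts of 5 and 33 thus depend on the choice of the classes. The comparison of the lists was not tested.

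Most helicase subunits were present in both classes. Mcm2 was above background in 8 cycling and 14 quiet cells (difference 1.48) and Mcm6 in 8 and 15 (0.82), neither of them called. Mcm5 was higher by 3.45, with a range of 11.16 to 15.14 and a median of 12.07 in cycling cells, against 2.38 to 14.51 and a median of 11.77 in quiet cells, 12 of which were above background. The medians of Mcm5 lay close together, and 6 quiet cells were at background. In contrast, Mcm10, which acts when origins fire, was above background in 7 cycling cells, with a median of 10.41, and in 1 quiet cell. Gmnn, the geminin inhibitor of relicensing that accumulates from S phase on, was in all 8 cycling cells at 9.47 to 12.71 and in 5 quiet cells (5.91). The loader Cdc6 stood at 4 and 3 cells (2.32, and 1.37 without cell 6).

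At the replication fork, Pcna, the sliding clamp, spanned 9.35 to 15.90 with a median of 13.23 in cycling cells and 2.52 to 14.25 with a median of 12.24 in quiet cells (difference 2.96). It was above background in 14 of the 18 quiet cells. Pola1, of the priming polymerase, was in 7 and 3 cells (4.60), the checkpoint mediator Clspn in 6 and 2 (5.04), and Rfc4 of the clamp loader in 7 and 4 (4.84). Of 31 fork genes 18 were higher and none was lower, with a median of 2.54.

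For nucleotide supply, 7 of 15 genes were higher, with a median of 1.91. Rrm2, the S-phase subunit of ribonucleotide reductase, was above background in 6 cycling cells and no quiet cell, with a cycling median of 10.45. Its difference was 4.57 counted from log2 5 (6.52 as deposited). Its partner Rrm1 was read in 7 cycling and 10 quiet cells (2.85), and Tk1, thymidine kinase, in 7 and 2 (6.21). Tyms, thymidylate synthase, was in 1 and 3 cells (-0.12). Chromatin genes of the fork included the maintenance methyltransferase Dnmt1, above background in 8 cycling and 12 quiet cells (3.65), its partner Uhrf1 in 8 and 10 (3.46), and the histone methyltransferase Ezh2 in 8 and 9 (4.25). In repair, Rad51ap1 was in 7 and 0 cells and Brca1 in 5 and 0 (3.73 and 3.48 counted from log2 5). Ung, which removes uracil from DNA, ran the other way, with 2 cycling and 11 quiet cells above background (-3.17).

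**Figure D2:**
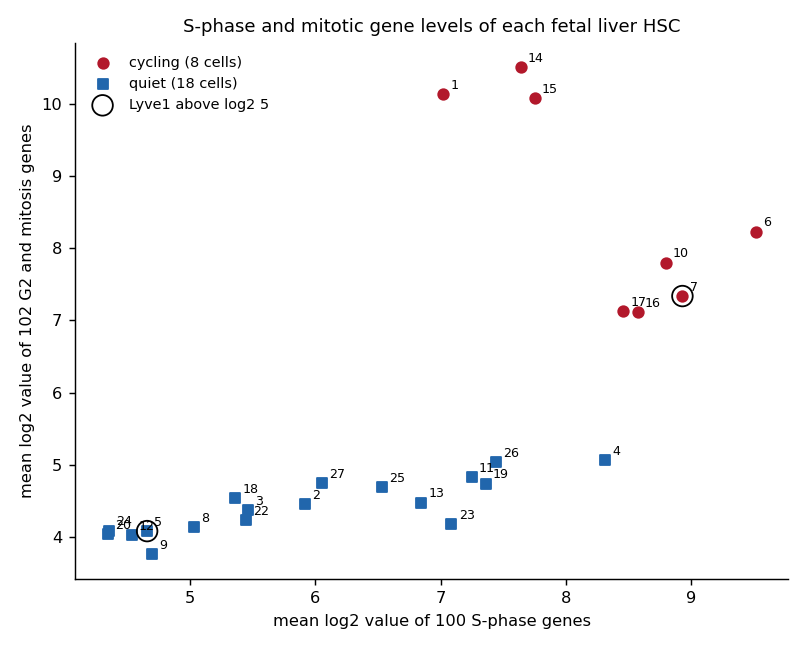
Mean log2 value of 100 S-phase genes (horizontal axis) against that of 102 G2 and mitosis genes outside the rule (vertical axis) in each fetal liver HSC, 8 cycling cells as red circles and 18 quiet cells as blue squares, numbered by cell, with black rings around the 2 cells with Lyve1. All cycling cells lie at 7.11 or higher on the vertical axis and all quiet cells at 5.07 or lower, while along the horizontal axis 5 quiet cells reach the range of the cycling cells.

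Averaged over each list, the mitotic level was 8.54 ± 1.46 (SD over cells, n = 8) in cycling cells and 4.41 ± 0.38 (n = 18) in quiet cells, with no overlap. The S-phase level was 8.34 ± 0.81 in cycling and 5.93 ± 1.24 in quiet cells. It ran from 4.34 to 8.31 in quiet cells, and 5 of them (cells 4, 26, 19, 11 and 23, at 8.31, 7.44, 7.36, 7.25 and 7.09) lay at or above the lowest cycling cell (7.02). Quiet cell 4 thus had an S-phase level near the cycling median of 8.51 with a single gene of the rule, Cdk1. Within the quiet cells the S-phase level went with the number of probe sets above background (Pearson r 0.82 over 18 cells, a description, since both are read from the same arrays). The mitotic level went with it too, with r 0.74 over the 18 quiet and 0.73 over the 8 cycling cells, while the S-phase level of the cycling cells had r -0.54. Cells 1, 14 and 15 had 8489, 7553 and 7542 probe sets above background. The part of this number in the levels was not tested.

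The cycling cells were not alike. Cells 1, 14 and 15 had the highest mitotic levels (10.13, 10.51 and 10.07) and the lowest S-phase levels (7.02, 7.64 and 7.75). In cell order 6, 7, 10, 16 and 17, the other cells had mitotic levels of 8.23, 7.34, 7.80, 7.11 and 7.13 and S-phase levels of 9.52, 8.93, 8.80, 8.57 and 8.46. Single genes of known phase also varied from cell to cell. Ccne2, the cyclin of the G1 to S transition, read 11.13, 10.20 and 10.54 in cells 6, 7 and 10, 5.06 in cell 15, and 2.35, 2.36, 2.40 and 2.84 in cells 1, 14, 16 and 17. Rrm2 was at background in cells 1 and 14 (2.37 and 2.38) and between 10.01 and 12.57 in the others. Cdc20 read 12.62, 12.54 and 12.38 in cells 1, 14 and 15, at most 9.40 in cells 6, 10 and 17, and 2.33 and 2.35 in cells 7 and 16. Hmmr, a spindle protein, read 9.12, 11.08 and 9.84 in cells 1, 14 and 15, and 8.65 in cell 16, and was at background in the others. Ccna2 lay between 8.75 and 12.42 in all 8 cells. These are values of single cells, and with 8 of them no difference was tested.

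The promoters of the called genes were searched for sequence elements that mark these programmes in textbooks. The cell-cycle genes homology region (CHR, TTTGAA) is bound by MuvB, the CCAAT box by NF-Y, and the E2F site (searched as TTTCCCGC or TTTGGCGC) by E2F factors. Windows ran from 250 bases before to 50 bases after each start in the RefSeq table (GRCm38.p6), and both strands were searched. Different motifs overlapped in 10 promoters of measured genes and in none of those printed. Of the 86 mitotic genes called higher, 71 had promoters in the table, 81 in all. A CHR stood in 61.7% of these, in 11.8% of the 9015 promoters of measured genes and in 17.9% of all 32851 promoters. A CCAAT box stood in 72.8%, against 37.7% and 37.4%, and both elements together in 48.1%, against 4.81% for measured genes.

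The S-phase genes called higher had 57 promoters (49 of 58 genes matched), of which 15.8% held a CHR and 63.2% a CCAAT box. An E2F site stood in 19.3% of them, against 7.41% of the mitotic promoters, 3.31% of those of measured genes and 1.56% of all. The 612 other higher genes (626 promoters) had a CHR in 15.2% and a CCAAT box in 38.8%, and the 366 lower genes (398 promoters) had a CHR in 12.6% and a CCAAT box in 35.9%. A motif match is a description of letters and not a sign of binding. The sequences below are the 200 bases before the start, 5' to 3' on the strand of the gene (GRCm38.p6, RefSeq), with matches in capitals. Shown are rule genes (Top2a, Cdk1), a condensin gene (Ncapg), the best separated kinase (Bub1) and replication genes (Mcm5, Pola1). Ncapg was picked among called mitotic genes that hold both a CHR and a CCAAT box in these bases. Mcm5 and Pola1 were picked among called S-phase genes that hold an E2F site there. Their matches were thus fixed by the choice.
Top2a (chr11:99024190-99024389, minus strand): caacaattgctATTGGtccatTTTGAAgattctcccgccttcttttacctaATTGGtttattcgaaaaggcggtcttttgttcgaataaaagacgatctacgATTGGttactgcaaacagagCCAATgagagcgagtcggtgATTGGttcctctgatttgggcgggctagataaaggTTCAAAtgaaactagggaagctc
Cdk1 (chr10:69352913-69353112, minus strand): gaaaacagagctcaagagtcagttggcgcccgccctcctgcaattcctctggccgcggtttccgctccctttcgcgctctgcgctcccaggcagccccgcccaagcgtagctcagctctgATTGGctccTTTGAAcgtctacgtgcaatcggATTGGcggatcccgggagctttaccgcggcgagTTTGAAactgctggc
Ncapg (chr5:45669725-45669924, plus strand): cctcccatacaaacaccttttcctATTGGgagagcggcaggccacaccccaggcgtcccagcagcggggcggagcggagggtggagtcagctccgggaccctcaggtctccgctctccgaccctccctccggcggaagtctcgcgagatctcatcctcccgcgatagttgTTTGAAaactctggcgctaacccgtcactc
Bub1 (chr2:127831860-127832059, minus strand): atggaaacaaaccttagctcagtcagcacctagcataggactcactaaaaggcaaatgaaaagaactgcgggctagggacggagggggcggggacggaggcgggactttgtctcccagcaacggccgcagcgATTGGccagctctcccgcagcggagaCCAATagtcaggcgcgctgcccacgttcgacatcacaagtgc
Mcm5 (chr8:75109309-75109508, plus strand): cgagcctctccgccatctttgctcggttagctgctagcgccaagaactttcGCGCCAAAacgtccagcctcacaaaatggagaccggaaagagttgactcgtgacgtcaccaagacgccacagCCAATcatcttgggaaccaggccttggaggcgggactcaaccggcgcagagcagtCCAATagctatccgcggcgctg
Pola1 (chrX:93632156-93632355, minus strand): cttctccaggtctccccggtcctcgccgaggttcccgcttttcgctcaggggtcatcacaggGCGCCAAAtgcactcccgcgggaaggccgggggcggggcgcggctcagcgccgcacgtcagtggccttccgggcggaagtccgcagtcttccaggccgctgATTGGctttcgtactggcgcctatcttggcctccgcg
Top2a held a CHR with its first base at -23 and another at -179, beside 5 CCAAT boxes. Cdk1 held a CHR at -15 and at -71, the second close to a CCAAT box at -80. Ncapg had 1 CHR at -30 and a CCAAT box at -176. Bub1, above background in every cycling and no quiet cell, had 2 CCAAT boxes and no letters of the CHR in this window. Mcm5 and Pola1 had an E2F site at -149 and -138 and no CHR in this window.

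The regulators of these programmes had a smaller list median than the mitotic and S-phase genes. Of 21 measured E2F, MuvB and G1/S factors 7 were higher (33.3%) and 1 lower, with a median of 1.64. Of all measured genes 8.89% were higher and 4.31% lower. E2f8, a late repressor of the family, was above background in 7 cycling cells and 1 quiet cell (5.10), and E2f2, an activator, in 5 and 1 (4.39). Skp2, the ligase subunit that degrades p27, was in 7 and 8 cells (3.13). Lin9 of MuvB was in 4 and 0 cells (2.62 as deposited, 1.29 counted from log2 5). Mybl2 (B-Myb) was in 4 and 0 (1.64 as deposited) and Foxm1 in 3 and 2 (1.43), neither of them called. Rbl2 (p130), the pocket protein of resting cells, was lower at 3 and 9 cells (-2.21, and -1.87 without cell 12 or -1.80 counted from log2 5), whereas Rbl1 (p107) was higher (3.20). Cdk2 was in 7 and 15 cells (0.21, and -0.49 without the Lyve1 cells).

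Of the D-type cyclins, which link growth signals to the cycle, none was called higher in cycling cells. Ccnd2 spanned 2.48 to 10.17 in cycling cells with a median of 7.36 and 5 cells above background. In quiet cells it spanned 2.67 to 12.57 with a median of 9.01 and 16 cells above background, a difference of -2.27 that became -1.71 without cell 7, -1.67 without both Lyve1 cells and -1.62 counted from log2 5. Ccnd1 was in 3 and 10 cells (-1.12) and Ccnd3 in 8 and 15 (1.12). Cdk4, their kinase, was above background in every cell, with a difference of 0.03. Mycn was in 7 and 13 cells (0.02) and Myc in 4 and 4 (1.73). The list's median over 7 measured genes was 0.02, and 0.05 without the Lyve1 cells.

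The brakes of the cycle went both ways. Over 27 measured CDK inhibitors and quiescence-associated genes the median difference was -0.31, and 0.18 after shifting cells to an equal median. Of these genes 3 were higher (11.1%) and 4 lower, against 8.89% and 4.31% of all measured genes. The mean level was 5.64 ± 0.94 in cycling and 5.94 ± 1.19 in quiet cells, a gap smaller than the spread between cells. Cdkn1c (p57), the inhibitor best known in quiescent HSC, was above background in 4 of 8 cycling and 7 of 18 quiet cells (difference 1.29, and 0.60 without cell 14). Cdkn1b (p27) was in 3 and 6 cells (0.09, and 0.70 without the Lyve1 cells). The median of the 3 measured inhibitors was 1.29, and 0.70 without the Lyve1 cells. Cdkn2d (p19) was in 5 and 5 cells and higher by 2.50, which became 1.94 without cell 14 and 1.64 counted from log2 5. Cdkn1a was in 1 cycling cell and no quiet cell, Cdkn2c in 1 and 1, and Cdkn2a and Cdkn2b in none, so these were not measured.

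Among quiescence-associated genes, Ccng2, an atypical cyclin linked to arrest, was higher in cycling cells, with 6 of 8 against 5 of 18 above background (3.63). Stk11 (Lkb1) was also higher (2.21, and 1.83 without cell 16). Lower in cycling cells were Tsc1, the mTOR inhibitor, in 0 and 7 cells (-2.74), Trp53inp1 in 2 and 10 (-2.68), Zfp36, which destabilizes mRNA, in 2 and 9 (-2.53), and Gfi1, a repressor that restrains HSC proliferation, in 5 and 15 (-2.16, and -1.29 without cell 1). Counted from log2 5, Zfp36 kept its call (-2.24), while Tsc1 (-1.85), Trp53inp1 (-1.91) and Gfi1 (-1.60) did not, and of the higher genes Ccng2 kept it (2.74) and Stk11 did not (1.64). Foxo3 was in 5 and 12 cells (-0.51, and -0.13 without the Lyve1 cells), Txnip in 8 and 17 (0.02) and Ndn in 7 and 18 (-0.57), none of them called.

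**Figure D3:**
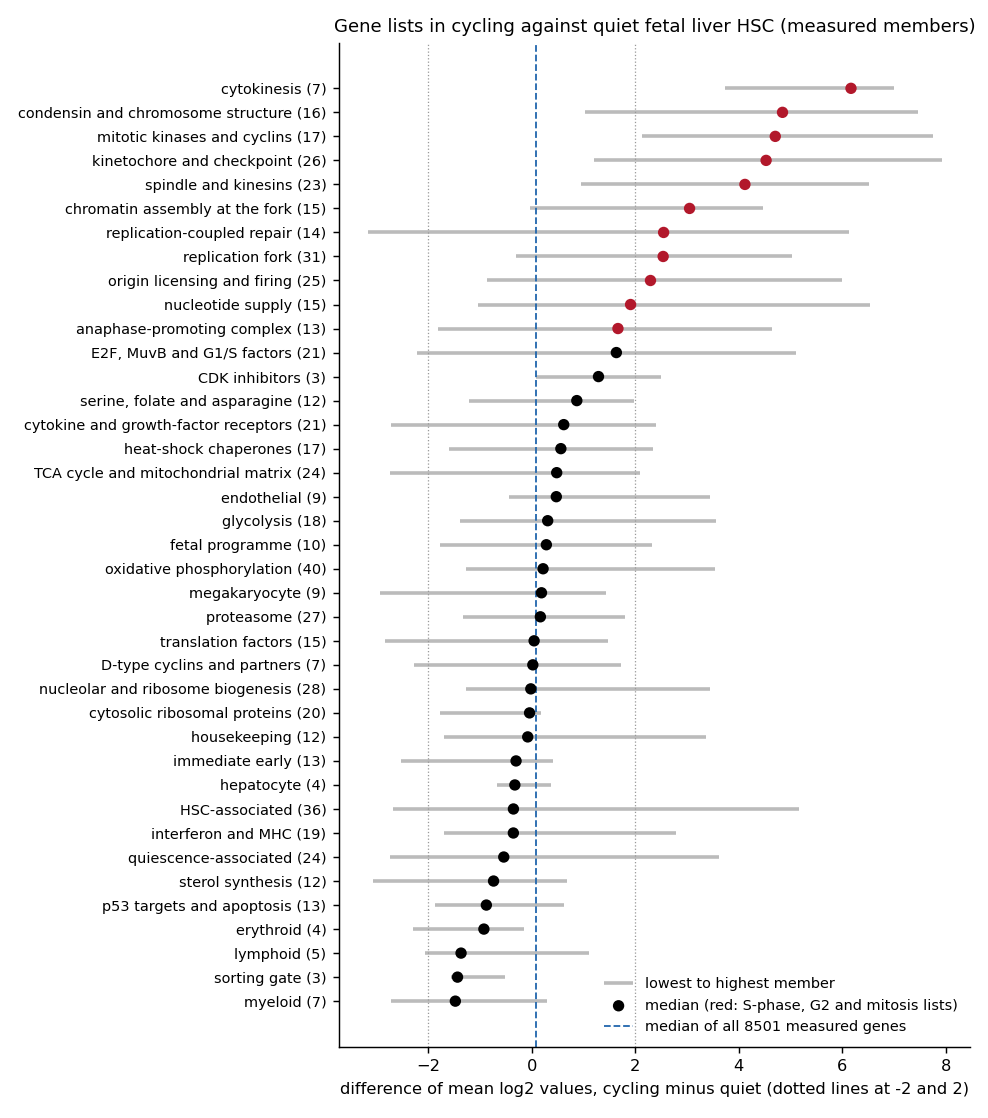
Median (dot) and lowest to highest value (grey bar) of the difference of mean log2 values, cycling minus quiet, over the measured members of each gene list (number in brackets), sorted by median. Lists of mitosis and S phase (red) have medians of 1.67 to 6.17, while HSC-associated, quiescence-associated and ribosomal lists lie near the median of all 8501 measured genes (0.08, dashed).

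Stem-cell identity genes were read at like levels in both classes. Their mean level per cell was 7.75 ± 1.26 in cycling and 7.79 ± 0.98 in quiet cells. Of 36 measured genes 2 were higher (5.56%) and 2 lower, against 8.89% and 4.31% of all measured genes. The median difference of the list was -0.35. This value changed sign with the setting: it was -0.03 without the Lyve1 cells, 0.14 after shifting to an equal median, 0.23 without cell 7 and 0.34 in cells whose control probe sets read the shared value. Hlf, a transcription factor of HSC, spanned 2.33 to 9.67 in cycling cells with a median of 8.72 and 2.30 to 11.91 in quiet cells with a median of 9.68 (difference -1.36, and -0.62 without cell 7). Mecom (Evi1) had medians of 10.39 and 11.54 (-1.07, and -0.05 without cell 7). Meis1 had medians of 11.34 and 11.66 (-0.55, and 0.57 without cell 7). Fgd5 was in 8 of 8 and 13 of 18 cells (0.48), Gata2 in 7 and 15 (0.59, and 0.12 without both Lyve1 cells), and Vwf in 5 and 8 (1.43, and 0.77 without cell 7), none of them called.

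The 4 HSC-associated genes past the threshold went both ways. Hacd4, an enzyme of very long chain fatty acid synthesis, was above background in 7 cycling and 4 quiet cells (5.16). Mllt3, which maintains HSC, was in 4 and 5 cells (2.24, and 1.56 without cell 14). Tal1, a master factor of blood, was lower at 5 and 17 cells (-2.68, and -1.91 without cell 17), and Ltb, a lymphotoxin, at 1 and 10 (-2.44). Counted from log2 5, Hacd4 kept its call (3.48) and the others did not (1.23, -1.96 and -1.70). Among fetal genes, the RNA-binding Igf2bp3 was higher (5 and 5 cells, 2.33, and 1.65 without cell 7 or 1.51 counted from log2 5), and Hmga2, which promotes fetal HSC self-renewal, was in 7 and 18 cells (-1.77).

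Most genes of committed blood lineages were at background in nearly all cells and were not measured. The counts below stand against 4.31% of all measured genes called lower and 8.89% called higher. Of 7 measured myeloid genes 2 were lower and none higher, with a median of -1.47: Csf2rb, the common cytokine receptor chain, in 0 and 6 cells (-2.73), and Spi1 (PU.1) in 2 and 13 (-2.12, and -1.91 without cell 17). Of 9 megakaryocyte genes Gp9 was lower, in 1 and 11 cells (-2.94), as was Nfe2, in 6 and 17 (-2.18, and -1.38 without cell 7), while the list's median was 0.19 (0.32 without the Lyve1 cells). Car2, counted with erythroid genes, was lower (-2.28, and -1.35 without cell 7), and so was Cd79b in the lymphoid list (-2.05, and -1.74 without cell 2). Counted from log2 5 none of these genes was called: Csf2rb stood at -1.80, Spi1 at -1.18, Gp9 at -1.67, Nfe2 at -1.71, Car2 at -1.91 and Cd79b at -1.36. The terminal genes Klf1, Alas2, Elane, Ppbp and Rag1 were above background in no cell.

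The genes with the most negative differences had varied roles. Mndal, of the interferon-inducible p200 family, whose members are similar enough that probes may not separate them, spanned 2.31 to 11.16 in cycling cells with a median of 2.35, and 2.30 to 13.98 in quiet cells with a median of 10.79. It was above background in 2 and 14 cells (difference -5.00). Rtp4, an interferon-inducible chaperone of receptors, spanned 2.30 to 2.38 in cycling and 2.30 to 12.24 in quiet cells with a quiet median of 9.10, and was in 0 and 10 cells. Its difference, counted from log2 5 upward, was -3.07 (-4.56 as deposited). Trim30a, also induced by interferon, was in 3 and 14 cells (-3.84). The interferon and MHC list as a whole had a median of -0.35 over 19 measured genes (0.14 after shifting to an equal median and -0.15 without the Lyve1 cells), and its 1 called member, Ifit2, was higher in cycling cells (2.80, and 1.77 counted from log2 5).

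Nsmaf, an adaptor of neutral sphingomyelinase, spanned 2.35 to 10.26 with a median of 3.05 in cycling cells and 2.34 to 11.66 with a median of 9.87 in quiet cells, and was in 3 and 16 cells (-4.22). Gnptab, which tags lysosomal enzymes with mannose 6-phosphate, was in 0 and 9 cells with a highest quiet value of 11.71 (-2.81 counted from log2 5, -4.24 as deposited). Zswim8, a ubiquitin ligase subunit that turns over microRNAs, was in 0 and 11 cells (-2.78 and -4.01). Neat1, the RNA scaffold of paraspeckles, was in 2 and 12 cells (-3.63), and the snoRNA host gene Snhg12 in 2 and 15 (-4.13). The others among the 15 with the most negative differences were Pcmtd1, Hook1, Zfp991, Bhlhb9, Crot, Gnpda2 and Pik3c2a, with differences as deposited of -4.34 to -3.64.

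Absence from every cycling cell together with presence in at least 50% of the quiet cells was found for 10 genes (0.118% of those measured). They were Rtp4, Gnptab, Zswim8, Pik3c2a, Pigh, Trio, Pdpr, Zbtb25, Cluh and Tmem189, each in 9 to 11 of 18 quiet cells. The cycling class held only 8 cells, and whether further cycling cells would hold these genes was not tested.

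**Figure D4:**
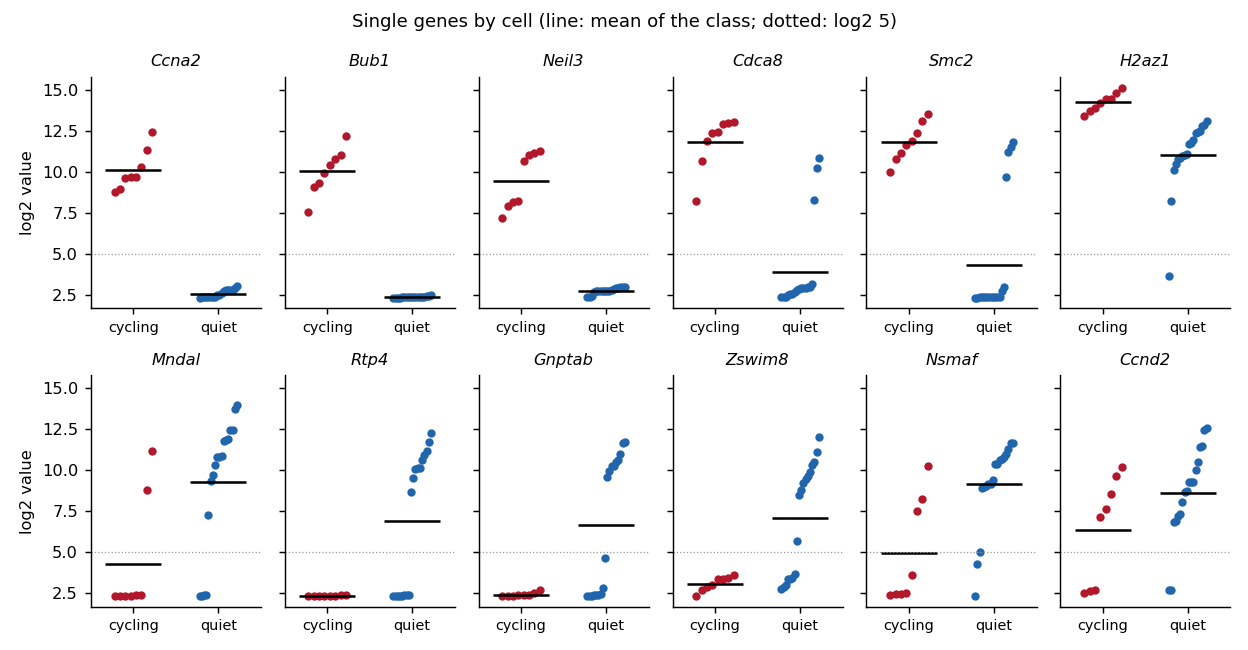
Log2 value of 12 genes in each of 8 cycling (red) and 18 quiet (blue) fetal liver HSC, with a line at each class mean and a dotted line at log2 5. Bub1, Ccna2 and Neil3 are above the dotted line in every cycling and no quiet cell, whereas Rtp4, Gnptab and Zswim8 are above it in no cycling cell and in 9 to 11 quiet cells.

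Of the lists of growth and metabolism, none had a median past the threshold, and the shares called higher in the nucleolar, oxidative phosphorylation and glycolysis lists lay near the 8.89% of all measured genes. The 20 measured ribosomal protein genes had a median difference of -0.04 (0.01 without the Lyve1 cells), with none called in either direction, and 28 nucleolar genes had -0.02, with Gnl3 (nucleostemin, 3.45), Rrs1 (3.36) and Nolc1 (3.10) higher. Oxidative phosphorylation genes had a median of 0.22 over 40 members (0.12 without the Lyve1 cells), and 4 of them, all of complex I, were higher, a share close to that of all genes: Ndufa5 (3.54), Ndufa9 (3.41), Ndufa1 (2.68) and Ndufv1 (2.54). Glycolysis had a median of 0.31 over 18 genes (-0.11 without the Lyve1 cells), with the lactate transporter Slc16a1 (3.56) and Pfkp (3.54) higher. The 27 proteasome genes had 0.17 and no call, and the 12 genes of serine, folate and asparagine synthesis 0.87 and no call (0.77 and 2 higher without the Lyve1 cells). The 24 genes of the TCA cycle and mitochondrial matrix had a median of 0.48 (0.30 without the Lyve1 cells). Of these, Phb2 was higher (2.10, and 1.74 without cell 24), while Polrmt, the mitochondrial RNA polymerase (-2.73), and Timm8a1 (-2.45, and -1.97 without cell 10) were lower. Hspa5, the chaperone of the endoplasmic reticulum, was the 1 of 17 heat-shock genes called (2.33, and 1.82 without cell 7), and that list had a median of 0.56 (0.26 without the Lyve1 cells). None of 13 p53 target and apoptosis genes was called, with a list median of -0.88, which became -0.27 with 2 lower without the Lyve1 cells. The endothelial list had a median of 0.48 over 9 measured genes and of -0.04 without the Lyve1 cells, and its member Ecscr was higher in both cases (3.44 and 3.49).

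Sterol synthesis had 3 of 12 genes lower in cycling cells and none higher, with a median of -0.74. Of all measured genes 4.31% were called lower and 8.89% higher. Idi1, of the mevalonate pathway, was above background in 2 and 12 cells (-3.06), Insig1, the sterol sensor, in 1 and 9 (-2.79), and Hmgcs1 in 2 and 9 (-2.22, and -1.88 without cell 14). With values under log2 5 set to 5 the median was -0.45 and none of the 3 was called. The 21 measured receptors had a median of 0.62 (0.35 without the Lyve1 cells), and Ifnar2 (2.41, and 1.98 without cell 16) and Tgfbr1 (2.12, and 1.78 without cell 15) were higher; counted from log2 5 they stood at 1.63 and 1.25. Immediate early genes, which cell handling can induce, had a median of -0.30 over 13 genes, which became -0.79 without the Lyve1 cells and 0.19 after shifting to an equal median. Zfp36 and Jun were lower, Jun in 0 and 5 cells (-2.13 as deposited, -1.61 counted from log2 5 and -1.60 without cell 26). Of 12 housekeeping genes 1 was called, Tbp, above background in 8 and 7 cells (3.37).

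The same count of 10 genes was made in the other populations. Their cells were not divided by the rule above, but they had a part in it, since each gene's probe set was chosen by its mean over the 5 populations. Cycling cells were 30.8% of fetal liver HSC (8 of 26, exact Clopper-Pearson 95% interval 14.3 to 51.8%, which covers counting error only). They were 96.4% of E10.5 cluster cells (27 of 28, 81.7 to 99.9%) and 75% of E12.5 cluster cells (12 of 16, 47.6 to 92.7%). They were 85.7% of endothelial cells (6 of 7, 42.1 to 99.6%) and 71.4% of hemogenic endothelial cells (5 of 7, 29.0 to 96.3%). Probe sets above background numbered 4750 to 8489 in fetal liver HSC, 8244 to 11487 in E10.5 and 4137 to 11079 in E12.5 cluster cells. They numbered 3908 to 8308 in endothelial and 6670 to 9065 in hemogenic endothelial cells. The part of this number in the shares of cycling cells was not tested. The intervals take cells as independent draws, although no animal or litter is named, so they do not compare populations. Each population counts as 1 sample, and the difference between these shares was not tested. The genes were drawn up with such results of these data known.

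**Figure D5:**
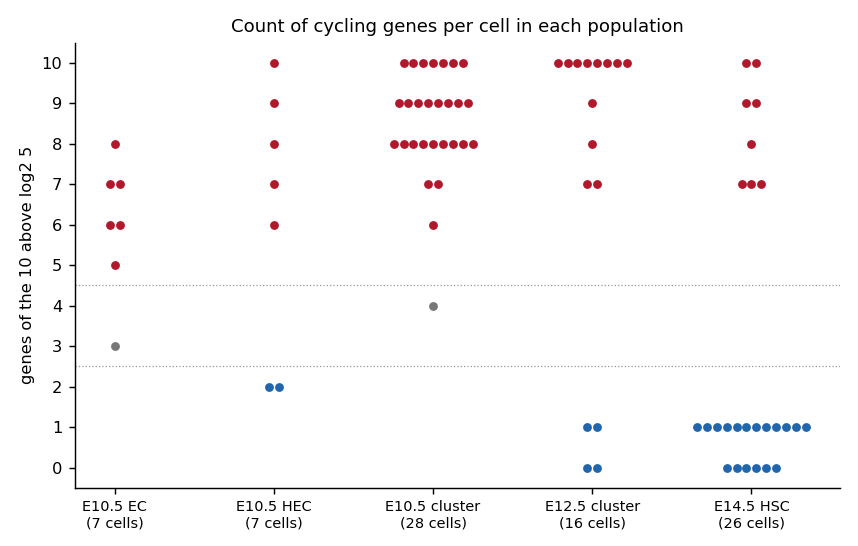
Number of the 10 genes above log2 5 (vertical axis) in every cell of the 5 populations, 1 dot per cell, with dotted lines at the limits: red cells are cycling, grey between the limits and blue quiet. Of 26 fetal liver HSC 18 hold at most 1 of the genes, against 4 of 16 E12.5 cluster cells and none of 28 E10.5 cluster cells.

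Only the E12.5 clusters also had at least 3 cells in both classes, 12 cycling and 4 quiet. There 3849 of 7925 measured genes were higher in cycling cells (48.6%) and 175 were lower (2.21%), and the all-gene median was 1.93. Their 4 quiet cells had 4137 to 6045 probe sets above background, and 1 of them held the macrophage gene C1qb at 15.69, so the contrast differs from that of the fetal liver in more than the cycle. Mitotic genes had a median difference of 5.43 there and S-phase genes 4.54. Without the C1qb cell these medians were 5.29 and 4.79, with 4040 genes higher and 203 lower. Bub1 differed by 8.90, Smc2 by 9.89 and Cdca8 by 8.78. Of the genes lower in cycling fetal liver HSC, 336 were measured in the E12.5 clusters, with 11 lower, 170 higher and a median of 2.05, close to the shares and the median of all genes there. Rtp4 differed by -1.40, Gnptab by 0.97 and Mndal by 1.51. Of 712 genes higher in cycling fetal liver HSC and measured there, 515 were higher, with a median of 3.20.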

How the data were processed

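Single cells were measured on 85 arrays of 45101 probe sets each. The deposited values are log2 expression after GCRMA background correction and normalization (affy), per the submitters' processing notes; versions are not given in the sources used here. They ran from 2.19 to 17.86, and 0.934% lay between 5 and 6, so a background threshold of 5 divides few values. Of the probe sets, 34958 had 1 gene symbol, 932 several and 9211 were unlisted in the platform table; the last 2 kinds name no gene. A gene is its brightest probe set by mean over the 5 populations (18194 genes). Genes above 5 in at least 3 of the 26 cells were compared by difference of means, called at 2. Rule genes were left out of the counts. No test was run, since the classes were chosen from the readout and each counts as 1 sample. The members and the 42 gene lists were chosen with earlier results of these data known. Named are the rule genes, list members and the 15 genes with the largest positive and negative differences, above background in at least 50% of the cells of the higher class; genes counted by presence in the classes are named in full. Alternatives changed the threshold, scaling, probe-set choice, average, limits, filter and cells. Python 3.11.15 with numpy 2.4.6, pandas 2.3.3, scipy 1.17.1 and matplotlib 3.10.9 was used, and the scripts were tested on simulated data. The number of cells limits the precision.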

Additional observations from a re-analysis of the deposited data

Results flagged for a closer look

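Among 47 results checked, 6 had a lowest or highest cell far from the other cells by Dixon's criterion, which chance meets in about 1 in 20 groups. Checked in the 8 cycling cells were the rule genes, the genes with the largest differences and per-cell measures. Rule-gene counts in endothelial and in hemogenic endothelial cells were also among the 47. All 6 flagged results were single genes in the cycling cells. Pbk, a mitotic kinase, read 2.93 in cell 16 against 10.94 or more in the other cycling cells. Shcbp1 read 4.6 in cell 7, one of the cells with Lyve1, against 9.24 or more. Nup133, of the nuclear pore, read 5.18 in cell 14 against 9.18 or more. Among the lower genes, Pcmtd1 read 8.71 in cell 15 and Gnpda2 10.65 in cell 1, each against at most 2.41 and 2.39 in the others. Gnptab read 2.69 in cell 10 against at most 2.48, all below background, where values have no order.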

How the results depend on the processing

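No paired analysis was possible because the labels name no animal or litter and each cell number occurs in 1 class only. No result for the counts or the 4 list medians was given a test, so none has a threshold to lose. Other class limits gave the same cells. Counts of 756 higher and 366 lower became 1274 and 180 after shifting cells to an equal median, 400 and 151 when probe sets were averaged per gene, 1457 and 579 with medians over cells, and 315 and 120 with values under log2 5 set to 5, an alternative chosen after seeing the data. Lower genes numbered 679 in the shared range of probe sets and 771 against quiet cells with no rule gene only, also chosen after seeing the data. The mitotic median of 4.37 became 3.12 when probe sets were averaged, 5.44 with medians over cells and 2.90 with the floor at 5. Leaving out 1 cell gave 732 to 918 higher and 346 to 477 lower genes, S-phase medians of 2.14 to 2.69, mitotic medians of 4.01 to 4.72, HSC-associated medians of -0.69 to 0.23 and brake medians of -0.51 to -0.17. Of the other values for single named genes, 66 moved beyond the spread between cells and 8552 did not. For many genes that spread was wider than the calling threshold of 2, so a call could be lost without such a move. Tsc1, for example, went from -2.74 to -0.10 in 1 setting, a shift within its spread. These counts therefore cannot show whether calls were kept. Eif1a turned to 0.11 when probe sets were averaged, and Cdkn3 and Kif20b to -0.0479 and -0.0032 with medians over cells, where most cells of both classes lie at background; the cause for Eif1a was not tested.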
